A study of Mus musculus with 5 samples.

Results

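The 9 genes described here encode enzymes that lung cells use to inactivate reactive chemicals. They are 6 glutathione transferases (Gstm1, Gstm2, Gsta3, Gsta4, Gstp1 and Gstt1), the quinone reductase Nqo1, the retinaldehyde dehydrogenase Aldh1a1 and the flavin monooxygenase Fmo2. Members were found by gene name among the 54532 genes of the deposited read count table, and all 9 were present and had enough reads to be tested. The list was selected on expression values of these same tumours, with the LSN against vehicle results known, so that the differences between LSN and vehicle tumours given for them are a description and carry no test.

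Gene expression was measured by bulk RNA-seq in 5 flash-frozen mouse lung tumours taken at necropsy, all labelled small cell lung cancer with the genotype RPP, from a genetically engineered model. The treatment label was LSN for 3 tumours and vehicle for 2, and the series' own description gives the treatment as an Aurora A kinase inhibitor. That description also mentions primary cells, whereas each sample label gives a tumour. The sources used here do not give the dose, the length of treatment, the age of the mice, the meaning of RPP or the Cre driver, and do not say whether each tumour came from its own mouse. P-values therefore measure the spread between these samples, which may in part be technical.

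Glutathione transferases join the tripeptide glutathione to electrophiles such as lipid peroxidation products and activated carcinogens, which makes them soluble and ready for export. Many of their genes, together with Nqo1, are induced by the transcription factor NRF2, which binds antioxidant response elements when its inhibitor KEAP1 is modified by electrophiles. In the normal mouse lung, this chemistry is concentrated in the club cells of the airway and in alveolar type 2 cells, which also carry the cytochrome P450 and flavin monooxygenase enzymes that act on a compound before conjugation. Aldh1a1 makes retinoic acid from retinaldehyde and oxidises lipid aldehydes.

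The stretches directly upstream of 3 members are printed because they hold a match to a regulatory motif that was searched, which allows the letters to be set beside the expression values. RefSeq promoters (GRCm38.p6, the build of the deposited coordinates) were matched by symbol for 8 of the 9 genes, Gsta4 being the gene not matched. Each sequence runs 5′ to 3′ on the strand of the gene over the 250 bases before the annotated start, and capitals mark the motif.
Gstm1, chr3:108017974-108018223, minus strand, capitals for the aryl hydrocarbon receptor core: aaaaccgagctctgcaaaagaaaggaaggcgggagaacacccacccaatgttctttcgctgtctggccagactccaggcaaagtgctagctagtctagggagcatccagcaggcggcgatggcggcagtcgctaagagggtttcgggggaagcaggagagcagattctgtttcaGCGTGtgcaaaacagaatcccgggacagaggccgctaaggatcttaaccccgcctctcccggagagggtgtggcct
Gsta3, chr1:21240335-21240584, plus strand, capitals for the antioxidant response core: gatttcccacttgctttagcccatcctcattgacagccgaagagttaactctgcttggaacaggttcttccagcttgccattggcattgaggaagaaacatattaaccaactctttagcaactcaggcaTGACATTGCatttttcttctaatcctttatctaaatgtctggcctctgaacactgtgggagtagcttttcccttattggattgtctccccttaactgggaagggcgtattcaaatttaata
Gstp1, chr19:4037913-4038162, minus strand, capitals for the aryl hydrocarbon receptor core: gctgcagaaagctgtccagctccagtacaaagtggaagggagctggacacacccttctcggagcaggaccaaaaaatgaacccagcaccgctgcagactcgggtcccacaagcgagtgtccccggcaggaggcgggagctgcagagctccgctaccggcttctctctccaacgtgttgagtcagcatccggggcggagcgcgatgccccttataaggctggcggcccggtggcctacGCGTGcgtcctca

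Of 32851 promoter windows of 300 bases, which run from 250 bases before to 50 after a start, 12.4% held the antioxidant response core TGACNNNGC on either strand, and 32.4% held the aryl hydrocarbon receptor core GCGTG. Among the 8 matched members, Gsta3 alone had the first, as TGACATTGC, 121 to 113 bases before its start. Gstm1 and Gstp1 had the second, 76 to 72 and 13 to 9 bases before the start, and the match of Gstm1 is also 231 to 227 bases before a further annotated start of that gene. The letters of Gstm2, Gstt1, Nqo1, Aldh1a1 and Fmo2 held neither motif in these windows. The matches are a description of the sequence, and binding was not measured.

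Total counts were 17870505, 19766604 and 19516606 in LSN replicates 1, 2 and 3, against 17804648 and 17439049 in vehicle replicates 1 and 2, and a count of 3 equalled 0.159 to 0.167 CPM (counts scaled to library size by TMM), a floor that covers counting error only. Neuroendocrine markers were present in every tumour. Markers of normal lung were present too and were lower with LSN. The summed level of 12 club cell markers was 1310, 39.4 and 425.9 CPM in the LSN tumours, against 6428 and 3320 CPM in the vehicle tumours. The sum of 10 alveolar type 2 markers was 1463, 496.6 and 1100 CPM with LSN, against 2791 and 7162 CPM with vehicle.

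By the quasi-likelihood test of edgeR with Benjamini-Hochberg adjustment at 0.05, 0 of 17906 genes were called between LSN and vehicle tumours (0.0% lower and 0.0% higher), the smallest adjusted p being 0.9996. An unadjusted p under 0.05 was reached by 764 genes, 3.21% of those tested being lower and 1.06% higher. DESeq2, which the labels' protocols name, gave 100 called genes among the 18547 that had an adjusted p, 0.464% being lower and 0.0755% higher. By limma-voom, 0 were called. Of the 9 members, edgeR called 0 and DESeq2 called 1, Gstm1, a count from which nothing is read because the list was chosen on this contrast. That call was lost when any tumour other than LSN replicate 1 was left out.

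All 9 members had a lower average with LSN, with a median log2 fold change of -1.40, whereas the median of all 17906 genes tested was 0.03 and 46.8% of them were below 0. In 6 members, Gstm1, Gsta4, Gstt1, Nqo1, Aldh1a1 and Fmo2, every LSN tumour lay below both vehicle tumours, an arrangement found in 10.4% of all genes tested. Gstm2, Gsta3 and Gstp1 overlapped between the groups. The same 6 genes separated the groups with RLE scaling or total counts. Summed over the members, levels were 167.8, 164.7 and 161.4 CPM in the LSN tumours, against 631.5 and 254.4 CPM in the vehicle tumours, where Aldh1a1 made up 350 CPM of the first sum and 63.4 CPM of the second. In bulk tissue, fewer cells of a type and less RNA per cell cannot be told apart.

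**Figure D1:**
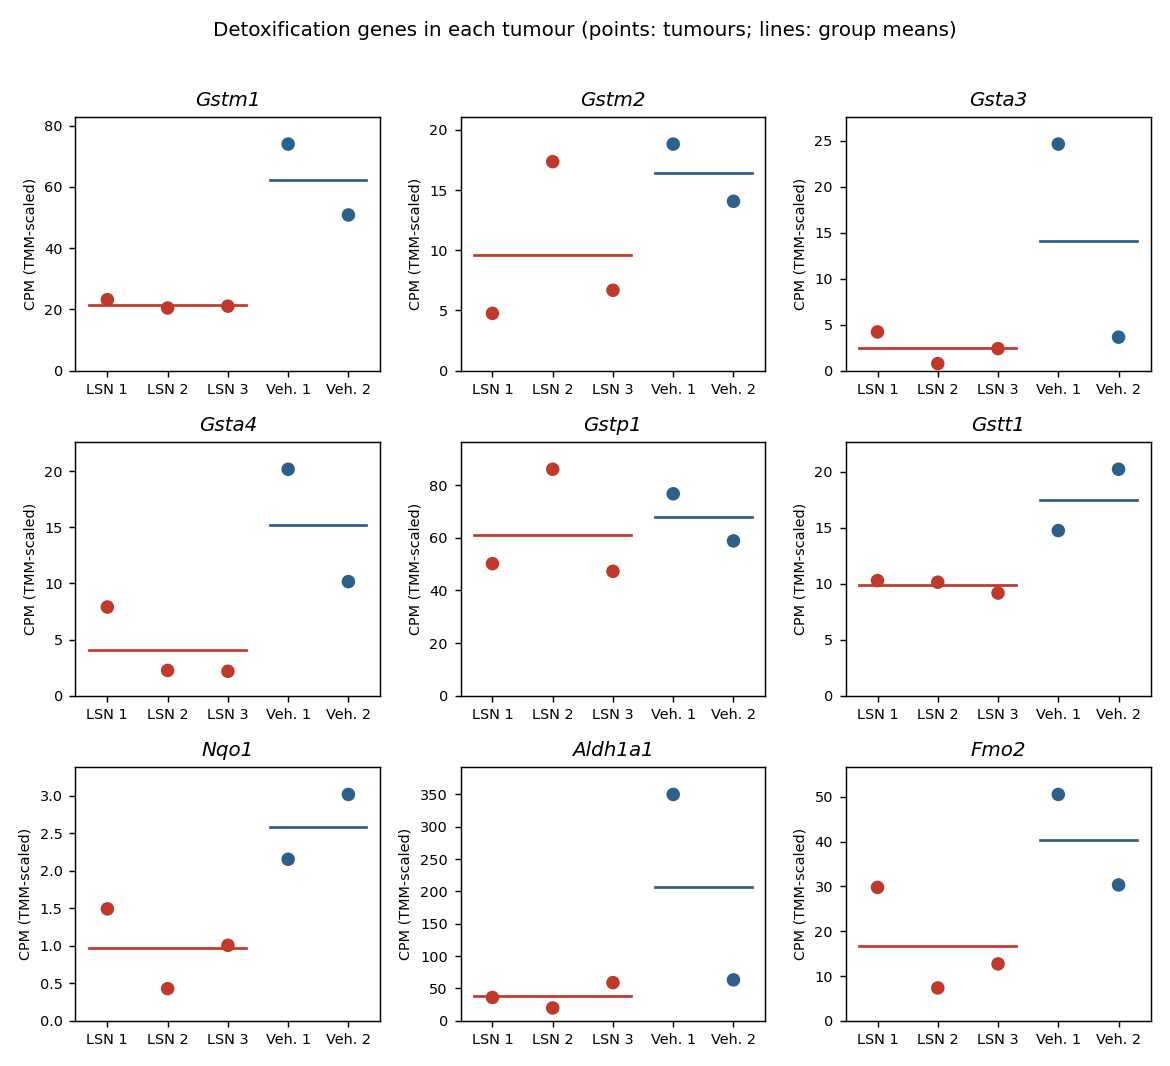
TMM-scaled counts (CPM, linear axes from 0) of the 9 members in LSN replicates 1 to 3 (red) and vehicle replicates 1 and 2 (blue); points are tumours and horizontal lines are group means. The LSN points lie below both vehicle points for Gstm1, Gsta4, Gstt1, Nqo1, Aldh1a1 and Fmo2, and vehicle replicate 1 stands far above the other tumours for Aldh1a1, at 350 CPM, and Gsta3, at 24.6 CPM.

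Gstm1 (ENSMUSG00000058135, chromosome 3, 108012255 to 108017973) encodes a cytosolic mu-class transferase. It was at 23.1, 20.4 and 21.0 CPM in LSN replicates 1, 2 and 3, against 74.0 and 50.8 CPM in vehicle replicates 1 and 2. The LSN tumours were nearly equal, and the lower vehicle tumour was still above all of them. The log2 fold change was -1.53 ± 0.28 (SE), and the means were 21.5 ± 1.43 CPM in the 3 LSN tumours and 62.4 ± 16.4 CPM in the 2 vehicle tumours (each ± SD). Leaving out vehicle replicate 1 gave -1.23, and leaving out vehicle replicate 2 gave -1.78.

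Gstm2 (ENSMUSG00000040562, chromosome 3, 107981702 to 107986453), a second mu-class gene of the same cluster, was at 4.75, 17.4 and 6.67 CPM with LSN, against 18.8 and 14.1 CPM with vehicle. LSN replicate 2 lay between the vehicle tumours, and the other LSN tumours lay below them. The log2 fold change of -0.78 ± 0.66 (SE) was -1.53 without LSN replicate 2 and -0.46 without LSN replicate 1. Gstm1 and Gstm2 therefore had different profiles, although their genes are neighbours. In Gstm1 the LSN tumours spanned a 1.13-fold range, and in Gstm2 a 3.66-fold range.

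Gsta3 and Gsta4 are alpha-class transferases. Gsta3 in mice inactivates the epoxide of aflatoxin, and Gsta4 conjugates hydroxynonenal, an aldehyde from oxidised lipids. Gsta3 (ENSMUSG00000025934, chromosome 1, 21240589 to 21265661) was at 4.20, 0.750 and 2.38 CPM with LSN, against 24.6 and 3.63 CPM with vehicle, so that a single vehicle tumour stood apart and the other lay below LSN replicate 1. Its log2 fold change of -2.53 ± 1.06 (SE) was -0.56 without vehicle replicate 1 and -3.33 without vehicle replicate 2.

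Gsta4 (ENSMUSG00000032348, chromosome 9, 78182774 to 78209349) was at 7.90, 2.25 and 2.17 CPM with LSN, against 20.2 and 10.2 CPM with vehicle. All LSN tumours were below both vehicle tumours, and LSN replicate 1 was closest to them. The log2 fold change was -1.88 ± 0.77 (SE), with a range of -2.78 without LSN replicate 1 to -1.30 without vehicle replicate 1.

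Gstp1 (ENSMUSG00000060803, chromosome 19, 4035407 to 4037921), a pi-class transferase found in many epithelia and tumours, varied least of the members. It was at 50.2, 86.1 and 47.3 CPM with LSN, against 76.7 and 58.8 CPM with vehicle, and the highest tumour of all was LSN replicate 2. Its log2 fold change was -0.15 ± 0.36 (SE), which became 0.07 with vehicle replicate 1 left out and 0.00 with LSN replicate 3 left out.

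Gstt1 (ENSMUSG00000001663, chromosome 10, 75783813 to 75798584), a theta-class transferase that acts on small halogenated compounds, was at 10.3, 10.1 and 9.16 CPM with LSN, against 14.7 and 20.2 CPM with vehicle. The LSN tumours were again close together and below both vehicle tumours, with vehicle replicate 2 the higher of the pair. A log2 fold change of -0.83 ± 0.38 (SE) resulted, which was -0.58 without vehicle replicate 2 and -1.03 without vehicle replicate 1.

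Nqo1 (ENSMUSG00000003849, chromosome 8, 107388225 to 107403206), which reduces quinones and is a standard readout of NRF2 activity, was low everywhere. It had 27, 8 and 19 counts with LSN, equal to 1.49, 0.429 and 1.01 CPM, against 40 and 54 counts with vehicle, equal to 2.15 and 3.01 CPM. The groups did not overlap, and the log2 fold change was -1.40 ± 0.72 (SE), resting on few reads.

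Aldh1a1 (ENSMUSG00000053279, chromosome 19, 20492715 to 20643462) was at 36.1, 19.9 and 59.0 CPM with LSN, against 350 and 63.4 CPM with vehicle. Vehicle replicate 1 was 5.52 times vehicle replicate 2, and vehicle replicate 2 was only slightly above LSN replicate 3. The log2 fold change of -2.43 ± 0.80 (SE) was -0.71 without vehicle replicate 1 and -3.19 without vehicle replicate 2.

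Fmo2 (ENSMUSG00000040170, chromosome 1, 162874317 to 162898726), the main flavin monooxygenase of the mouse lung, was at 29.8, 7.34 and 12.7 CPM with LSN, against 50.5 and 30.3 CPM with vehicle. LSN replicate 1 almost reached vehicle replicate 2. Its log2 fold change was -1.28 ± 0.64 (SE), -2.02 without LSN replicate 1 and -0.86 without vehicle replicate 1.

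Levels of different genes were compared per length, as CPM divided by the deposited gene length in kilobases, a scale written as RPKM. The order depends on these lengths, which were 4934 bases for Aldh1a1 and 4344 for Gsta3, against 1473 for Gstm1 and 1266 for Gsta4. The length of the transcripts present in the tumours was not determined. Gstp1 was the most abundant member on this scale in both groups, averaging 80.8 RPKM with LSN and 89.6 RPKM with vehicle. Gstm1 came second with LSN, at 14.6 RPKM, and with vehicle, at 42.3 RPKM. Aldh1a1 followed at 7.77 RPKM with LSN and 41.9 RPKM with vehicle, but its vehicle tumours lay at 70.9 and 12.8 RPKM, so that it ranked above Gstm1 in vehicle replicate 1 and below it in vehicle replicate 2. Gstt1 and Gstm2 were next with LSN, at 6.45 and 5.71 RPKM, and averaged 11.4 and 9.79 RPKM with vehicle. With LSN, the tumours of Aldh1a1, Gstt1 and Gstm2 overlapped, so that their order is not settled. Gsta4 and Fmo2, at 3.24 and 2.96 RPKM with LSN, overlapped as well. Gsta3 and Nqo1 were the lowest, at 0.562 and 0.628 RPKM with LSN and 3.25 and 1.66 RPKM with vehicle.

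Among the members, profiles fell into different shapes over the 5 tumours. Likeness was measured as the root mean square difference of log2 CPM centred on each gene's mean, over 5 tumours and with no test. The closest pair was Gsta4 with Fmo2, at 0.398, both high in vehicle replicate 1 and LSN replicate 1 within their groups. The most distant pair was Gsta3 with Gstm2, at 1.65. Aldh1a1 and Gsta3 shared a peak in vehicle replicate 1, at 2.48 and 2.68 above their mean on the log2 scale, and differed by 0.551.

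Candidates were the 14412 other tested genes averaging at least 1 CPM, leaving out predicted genes (Gm numbers and Rik names) and pseudogenes. Among these candidates, the nearest profiles were named in the same way. Gstm1 lay nearest to Acss1, a mitochondrial acetyl-CoA synthetase, at 0.128, and to Cdkl4, a cyclin-dependent kinase-like gene, at 0.137. Gstm2 lay nearest to Vegfa, the angiogenic growth factor, at 0.132, and to Junb, an immediate early transcription factor, at 0.163. Gsta4 lay nearest to Fam92b, at 0.103, and to the carbonyl reductase Cbr3, at 0.189, while Nqo1 lay nearest to Rnf207 and to the prostaglandin synthase Ptgs2, at 0.133 and 0.136.

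Fmo2 lay nearest to Scn7a, a sodium channel gene, and Kcnmb2, a potassium channel subunit, at 0.132 and 0.154. Gstp1 (Zfp664) and Gstt1 (Chst14 and mt-Nd3) had close neighbours, at 0.0225 to 0.0794. For Gsta3 the nearest were Lrrc26 and the carboxylesterase Ces1f, at 0.302 and 0.326, and for Aldh1a1 they were Poln and Epb41l4aos, at 0.311 and 0.323. With 5 tumours and this many candidates, near profiles are found for most shapes, and they say nothing on shared control.

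**Figure D2:**
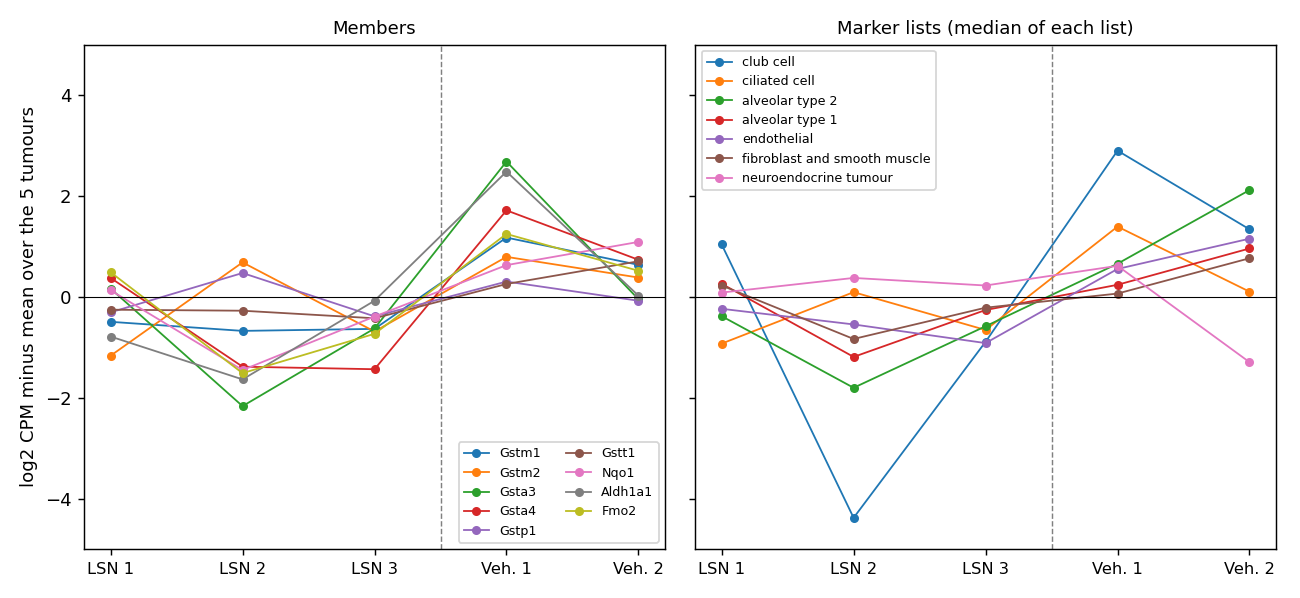
Log2 CPM minus the mean over the 5 tumours for each member (left) and the median of each marker list (right), with LSN tumours left and vehicle tumours right of the dashed line; lines only join the points of 1 gene or list. Aldh1a1 and Gsta3 peak in vehicle replicate 1, where the medians of club cell, ciliated cell and neuroendocrine tumour markers are highest. The medians of the other lists shown, alveolar type 2 markers among them, are highest in vehicle replicate 2.

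Markers of the normal lung epithelium were lower along with the members. All 12 club cell markers had a log2 fold change below 0, against 46.8% of all genes tested, with a median of -2.52. Of these markers, 8 were lower in every LSN tumour, or 66.7%, against 10.4% of all genes tested. This was not particular to club cells. It held for 10 of 11 endothelial markers (90.9%), 8 of 10 alveolar type 2, 8 of 12 ciliated cell and 6 of 10 alveolar type 1 markers. It held for 3 of 10 fibroblast and smooth muscle markers, 1 of 10 macrophage and 1 of 10 neuroendocrine markers. No T and B cell or tested liver marker had this arrangement. Scgb1a1, the club cell secretoglobin, was at 428.1, 2.14 and 223.9 CPM with LSN, against 3688 and 2313 CPM with vehicle. All 10 alveolar type 2 markers were below 0 as well, with a median of -2.42. Sftpc, the surfactant protein of these cells, was at 779, 191.0 and 592.7 CPM with LSN, against 1528 and 3887 CPM with vehicle.

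LSN replicate 2 had the lowest club cell and alveolar type 2 sums of all tumours, and it was also the lowest tumour for Gstm1, Gsta3, Nqo1, Aldh1a1 and Fmo2. It was not the lowest for Gstm2 or Gstp1, where it was the highest LSN tumour. For Gsta4 and Gstt1 the lowest was LSN replicate 3, at 2.17 and 9.16 CPM, against 2.25 and 10.1 CPM in LSN replicate 2. Vehicle replicate 1 had the highest club cell and ciliated cell sums and was the highest tumour for Gstm1, Gstm2, Gsta3, Gsta4, Aldh1a1 and Fmo2. Gstt1 and Nqo1 were highest in vehicle replicate 2, at 20.2 and 3.01 CPM, and Gstp1 in LSN replicate 2, at 86.1 CPM. Endothelial markers, below 0 for all 11 genes, summed to 185.1, 164.6 and 115.8 CPM with LSN, against 399.3 and 597.8 CPM with vehicle.

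Ciliated cell markers (11 of 12 below 0, sums of 154.3 to 204.9 CPM with LSN and 300.4 to 400.1 CPM with vehicle) and alveolar type 1 markers (9 of 10 below 0, sums of 383.5 to 509.8 CPM with LSN and 697.2 to 950.9 CPM with vehicle) were lower too. Fibroblast and smooth muscle markers summed to 433.4 to 825.4 CPM with LSN and 744.0 to 1512 CPM with vehicle, which overlap, with 9 of 10 genes below 0. Macrophage markers (4 of 10 below 0, sums of 458.2 to 758.2 CPM with LSN and 401.4 to 1673 CPM with vehicle) and T and B cell markers (8 of 10 below 0, sums of 13.9 to 62.1 CPM with LSN and 21.6 to 79.2 CPM with vehicle) overlapped too. Of 10 neuroendocrine markers, 3 were below 0, with sums of 4647 to 8452 CPM with LSN and 2229 to 6621 CPM with vehicle. Of 10 liver markers, a check for RNA of another organ rich in these enzymes, 3 were tested and 3 had no read in any tumour, with sums of 5.25 to 41.5 CPM with LSN and 19.0 to 25.3 CPM with vehicle, and Alb had at most 2 counts with LSN and 4 counts with vehicle. edgeR called 0 genes of any marker list. Among all genes with a DESeq2 adjusted p, DESeq2 called 0.464% lower and 0.0755% higher. In the 10 marker lists it called 5, all lower with LSN. These were Cldn5 and Adgrf5 among the endothelial markers, Cfap126 among the ciliated, Cxcl15 among the alveolar type 2 and Ccr2 among the macrophage markers, the last 4 being outside the rule for named genes and picked with their values seen. The part of each cell type in the levels of the members was not tested.

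Relatives of the members within the same gene families were examined next, since similar sequences can share reads. For 8 of the 9 members, 0 of their windows of 150 bases, the read length, occurred in transcripts of another gene of GENCODE M21. Gstp1 was the exception, with 17.6% of its windows also in Gstp2 or the pseudogene Gstp-ps, so that the split of reads between Gstp1 and Gstp2 is uncertain. The genes that overlap Gsta3 and Aldh1a1 on the opposite strand had too few reads to be tested, and the libraries do not keep strand.

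Aldh1a7, the closest relative of Aldh1a1 on chromosome 19, did not follow it. It was at 11.4, 17.1 and 395.6 CPM with LSN, against 179.4 and 19.7 CPM with vehicle. Both genes were high in vehicle replicate 1, but Aldh1a7 was highest in LSN replicate 3, where its count was above that of Aldh1a1, with 0.149 reads of Aldh1a1 for each read of Aldh1a7. In the other tumours this ratio was 1.16 to 3.22. Its log2 fold change was 0.51 ± 1.75 (SE), and the edgeR adjusted p was 0.9996. Nqo2, the relative of Nqo1, was at 16.4, 14.6 and 18.6 CPM with LSN, against 11.3 and 21.3 CPM with vehicle, and overlapped between the groups.

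Gstp2 was at 0.994, 8.41 and 10.9 CPM with LSN, against 4.25 and 6.70 CPM with vehicle, and its groups overlapped. Gstp3 had 9, 0 and 6 counts with LSN, against 39 and 43 counts with vehicle, and was lower in every LSN tumour (0.497, 0 and 0.318 CPM, against 2.10 and 2.40 CPM), and the adjusted p was 0.9996 in edgeR and 0.450 in DESeq2. The theta-class relative Gstt3 was at 2.15, 1.23 and 1.59 CPM with LSN, against 4.95 and 6.25 CPM with vehicle, while Gstt2 overlapped between the groups. For Gstt3 the log2 fold change was -1.75 ± 0.56 (SE), and its adjusted p was 0.9996 in edgeR and 0.110 in DESeq2.

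The other mu-class genes did not share the separation of Gstm1. Gstm5, the most abundant of them, was at 47.4, 37.0 and 52.5 CPM with LSN, against 52.7 and 27.7 CPM with vehicle. The count of Gstm1 was at most 0.552 times that of Gstm5 in the LSN tumours, against 1.40 and 1.83 times in the vehicle tumours. Gstm4, Gstm6 and Gstm7 overlapped between the groups, and Gstm3 was too low to be tested. Of the remaining alpha-class genes, Gsta1 had no read in any tumour and Gsta2 was at 0.269 CPM at most. Of their windows of 150 bases, 68.4% for Gsta1 and 19.6% for Gsta2 also occurred in other genes, so that these low counts are uncertain.

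**Figure D3:**
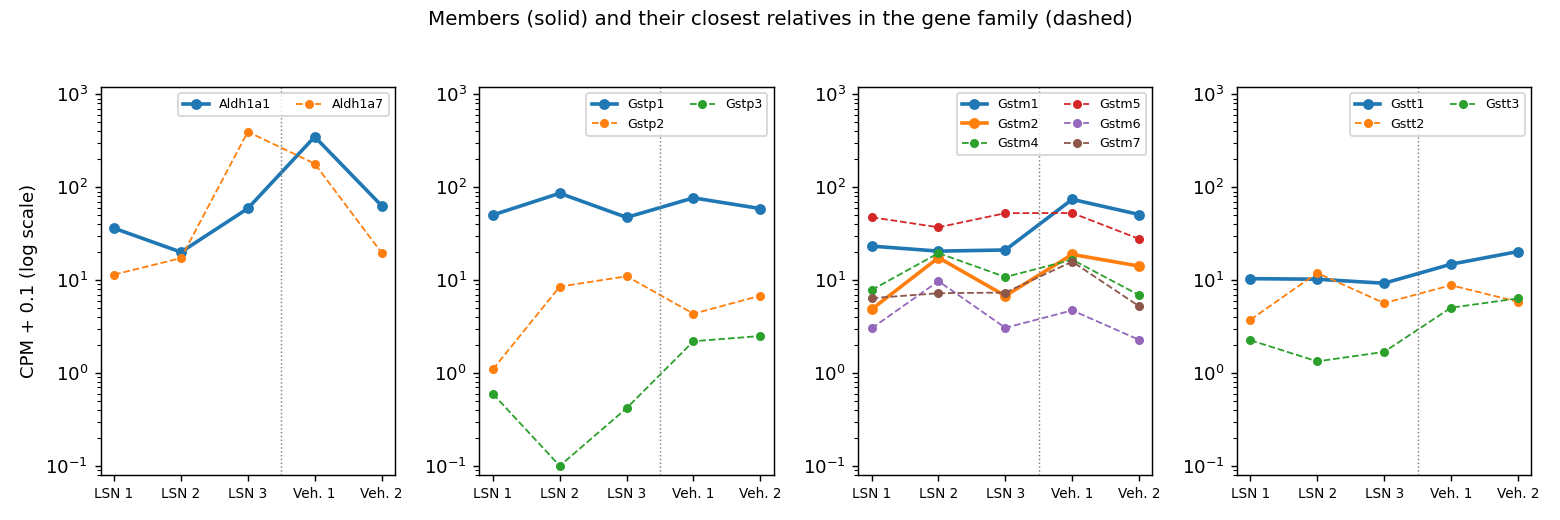
CPM plus 0.1 on a log axis for members (solid) and their relatives (dashed) in 4 panels, the Aldh1a, Gstp, Gstm and Gstt families, with LSN tumours left and vehicle tumours right of the dotted line; lines only join the points of 1 gene. Aldh1a7 exceeds Aldh1a1 in LSN replicate 3, at 395.6 against 59.0 CPM, and Gstm5 overlaps between the groups where Gstm1 does not.

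The other 20 glutathione transferases of the cytosolic, mitochondrial and microsomal classes were mixed. Of 16 tested, 10 were below 0 and 6 above, with a median log2 fold change of -0.32, against 0.03 for all genes tested. Lower in every LSN tumour were 5, or 31.25%, against 10.4% of all genes tested. Leaving out vehicle replicate 1 turned the median to 0.27, and leaving out vehicle replicate 2 made it -0.78. edgeR called 0 of the 16, with 4 lower at an unadjusted p under 0.05, against 3.21% of all genes tested. DESeq2 called 1, Gstk1, against 0.464% called lower among all genes with a DESeq2 adjusted p.

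Gstk1, the kappa-class transferase of mitochondria and peroxisomes, was at 1.99, 2.36 and 1.91 CPM with LSN, against 9.90 and 7.37 CPM with vehicle. The log2 fold change of -2.05 ± 0.50 (SE) had an edgeR adjusted p of 0.9996, whereas DESeq2 gave 0.00484. The DESeq2 call was kept without LSN replicate 1 and lost without each of the other 4 tumours (adjusted p of 0.0437 to 0.508 over the 5 omissions).

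Mgst1, a microsomal transferase of lung epithelium, was at 18.6, 7.07 and 18.6 CPM with LSN, against 52.4 and 53.0 CPM with vehicle. Gsto1, an omega-class enzyme that reduces rather than conjugates, was at 27.9, 8.68 and 7.68 CPM with LSN, against 124.6 and 39.2 CPM with vehicle. Both were lower in every LSN tumour, and edgeR gave an adjusted p of 0.9996 for both, with DESeq2 giving 0.129 for Mgst1 and 0.196 for Gsto1.

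Oxidising enzymes of the lung that act before conjugation had the lowest median of the 6 pathway lists. Of 28 monooxygenases, cytochromes, esterases and reductases, 24 were tested and 23 were below 0, against 46.8% of all genes tested. In 11 of the 24, or 45.8%, every LSN tumour was lower, against 10.4% of all genes tested. The median log2 fold change of the list was -1.57, or -1.45 without Cyp2f2 and Cbr2, which are club cell markers too. It was -0.73 without vehicle replicate 1 and -2.20 without vehicle replicate 2. edgeR called 0, with 4 lower at an unadjusted p under 0.05, against 3.21% of all genes tested. DESeq2 called 1, Cyp2s1, against 0.464% called lower among all genes with a DESeq2 adjusted p.

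Cyp2s1, a cytochrome P450 of airway epithelium, was at 8.12, 1.13 and 4.50 CPM with LSN, against 39.2 and 40.7 CPM with vehicle, with a log2 fold change of -3.12 ± 0.80 (SE). edgeR gave an adjusted p of 0.9996 and DESeq2 gave 0.0336. It was no longer called by DESeq2 without vehicle replicate 1 or 2 or LSN replicate 3 (adjusted p of 9.45e-05 to 0.707 over the 5 omissions). Cbr2, a carbonyl reductase abundant in club cells, was at 122.7, 4.82 and 40.2 CPM with LSN, against 475.8 and 225.0 CPM with vehicle.

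Cyp2a5, which hydroxylates coumarin and nicotine, was at 1.21, 3.48 and 1.16 CPM with LSN, against 85.6 and 2.51 CPM with vehicle, so that vehicle replicate 1 alone was high. Fmo1, a relative of Fmo2, was at 3.81, 1.39 and 1.69 CPM with LSN, against 10.6 and 3.80 CPM with vehicle, and was also highest in vehicle replicate 1. Cyb5r3, a cytochrome b5 reductase expressed in most cells, was the 1 tested gene of the list above 0, with a log2 fold change of 0.17 ± 0.37 (SE).

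Genes that make and use glutathione had a median near 0 but leaned lower. All 22 were tested, and 16, or 72.7%, were below 0, against 46.8% of all genes tested. The median log2 fold change was -0.15, against 0.03 for all genes tested. Lower in every LSN tumour were 4, or 18.2%, against 10.4% of all genes tested. edgeR called 0, with 2 lower at an unadjusted p under 0.05, against 3.21% of all genes tested. DESeq2 called 0. Gclc, the catalytic subunit of the enzyme that limits glutathione synthesis, was at 70.9, 84.0 and 94.3 CPM with LSN, against 110.1 and 146.8 CPM with vehicle. In log2 fold change this was -0.63 ± 0.25 (SE), and the adjusted p was 0.9996 in edgeR and 0.984 in DESeq2.

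Gpx8, a peroxidase of the endoplasmic reticulum, was at 4.09, 3.38 and 2.86 CPM with LSN, against 8.66 and 11.9 CPM with vehicle, and the adjusted p was 0.9996 in edgeR and 0.0729 in DESeq2. Gpx4, which reduces lipid peroxides, and Gpx3, a secreted peroxidase, had log2 fold changes of -0.04 ± 0.30 (SE) and 0.10 ± 0.40 (SE).

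The NRF2 pathway list, which holds regulators as well as targets, was balanced around 0. It leaves out Nqo1 and the other members, and Nqo1 had a log2 fold change of -1.40. Gclc, Gclm, Gsr and Slc7a11, at -0.63, 0.09, 0.10 and -0.01, were placed in the glutathione list. NRF2 activity was not tested. All 25 genes were tested, 11 were below 0 and 14 above, and the median log2 fold change was 0.04. Lower in every LSN tumour were 4, or 16.0%, against 10.4% of all genes tested. Higher in every LSN tumour were 2 of the 25, against 8.48% of all genes tested. edgeR called 0, with 2 lower at an unadjusted p under 0.05, against 3.21% of all genes tested. DESeq2 called 0. Nfe2l2, the gene of NRF2, was at 41.2, 92.7 and 56.9 CPM with LSN, against 65.2 and 72.7 CPM with vehicle, and Keap1 was at 53.8, 69.2 and 92.7 CPM with LSN, against 61.2 and 53.4 CPM with vehicle. Nfe2l2 and Keap1 overlapped between the groups and were picked for mention with their values already seen.

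Prdx6, a peroxiredoxin abundant in alveolar type 2 and club cells, was at 115.9, 86.9 and 62.9 CPM with LSN, against 167.0 and 163.3 CPM with vehicle, and Cbr3, the neighbour of Gsta4 in profile, was at 3.64, 1.29 and 1.32 CPM with LSN, against 9.04 and 5.69 CPM with vehicle. Both were lower in every LSN tumour, and edgeR gave an adjusted p of 0.9996 for both, with DESeq2 giving 0.718 for Prdx6 and 0.411 for Cbr3. The ferritin genes Fth1 and Ftl1, which store iron, were the most abundant of the list. Fth1 was at 501.3, 560.0 and 678.1 CPM with LSN, against 488.4 and 1382 CPM with vehicle, and Ftl1 at 349.4, 287.6 and 314.9 CPM with LSN, against 361.4 and 917.7 CPM with vehicle, so that both were highest in vehicle replicate 2.

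The other aldehyde dehydrogenases lay on both sides of 0. Of 19 genes, 17 were tested, with 5 below 0 and 12 above and a median log2 fold change of 0.20, which was -0.05 without LSN replicate 3. Lower in every LSN tumour were 2 of the 17, or 11.8%, against 10.4% of all genes tested. Higher in every LSN tumour were 3 of the 17, against 8.48% of all genes tested. edgeR called 0, with 1 higher at an unadjusted p under 0.05, against 1.06% of all genes tested, and DESeq2 called 0. Aldh9a1, which oxidises aminobutyraldehyde, was at 76.1, 104.3 and 95.3 CPM with LSN, against 56.4 and 60.2 CPM with vehicle. Aldh1l2, a mitochondrial enzyme of folate metabolism, was at 43.5, 65.3 and 46.7 CPM with LSN, against 28.1 and 34.1 CPM with vehicle. Both had every LSN tumour above both vehicle tumours, an arrangement found in 8.48% of all genes tested, and edgeR gave an adjusted p of 0.9996 for both, with DESeq2 giving 0.794 for Aldh9a1 and 0.845 for Aldh1l2.

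Enzymes of the other conjugation routes and the efflux pumps were level as a list. Of 19 genes, 13 were tested, with 8 below 0 and a median log2 fold change of -0.02. Lower in every LSN tumour was 1 of the 13, or 7.69%, against 10.4% of all genes tested. edgeR called 0, with 1 lower at an unadjusted p under 0.05, against 3.21% of all genes tested, and DESeq2 called 0. Sult1d1, a sulfotransferase, was at 0.442, 0 and 0.582 CPM with LSN, against 22.7 and 0.391 CPM with vehicle, and was high in vehicle replicate 1 alone. Sult1a1, a phenol sulfotransferase, was at 4.03, 1.23 and 1.27 CPM with LSN, against 4.57 and 5.64 CPM with vehicle. Abcc5, an organic anion exporter, was abundant and had a log2 fold change of -0.02 ± 0.48 (SE).

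**Figure D4:**
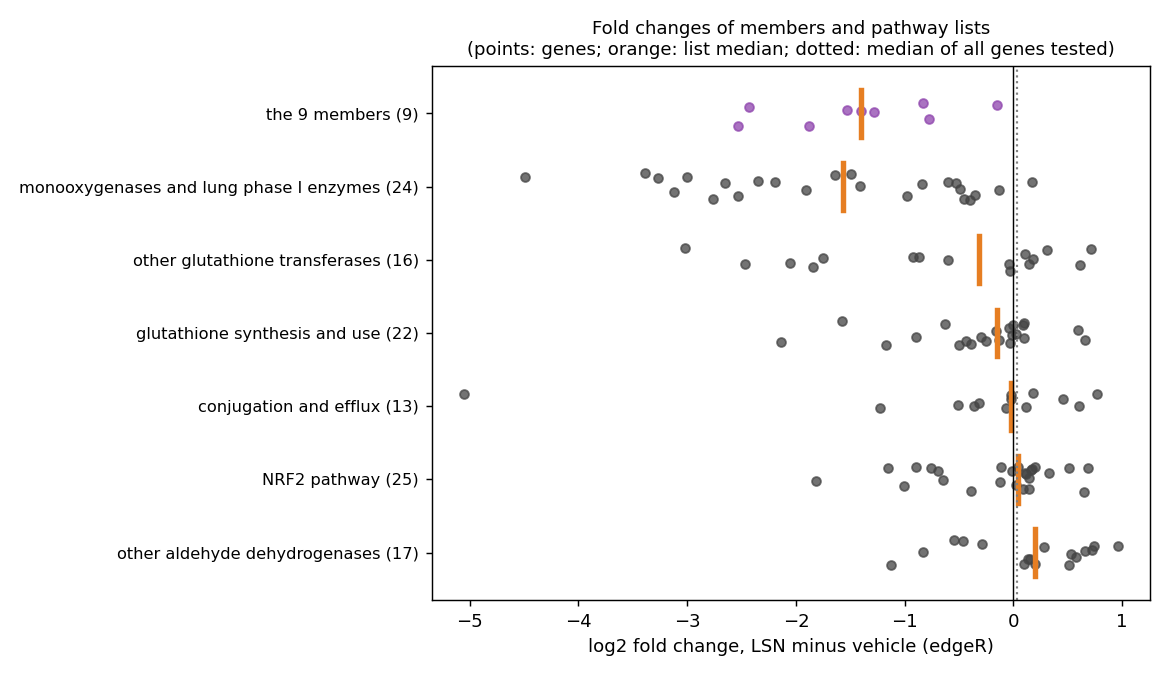
Log2 fold change of LSN minus vehicle by edgeR for each tested gene of the 9 members and the 6 pathway lists, with the number tested in brackets, list medians in orange and the median of all genes tested, 0.03, as a dotted line. Points of the members and of the monooxygenases and lung phase I enzymes lie mostly below 0, with medians of -1.40 and -1.57, and the other lists centre between -0.32 and 0.20.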

How the data were processed

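The authors deposited whole-number read counts per gene, not normalized, for 54532 genes in 5 tumours. Per the labels' protocols, libraries were made from DNase-treated total RNA without keeping strand, and paired reads of 150 bases were mapped to mm10 with STAR. DESeq2 was used by the authors for differential expression. The counting program is not given in the sources used here. Groups came from the treatment label, and replicate numbers follow accession order.

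The test was edgeR's quasi-likelihood one (edgeR 4.0.16, R 4.3.3, robust fit, TMM scaling, filterByExpr with a minimum count of 10 and total of 15, 17906 genes kept, 3 residual degrees of freedom), with Benjamini-Hochberg adjustment over all genes tested. CPM values are TMM-scaled, log2 CPM uses a prior count of 2, and RPKM uses the deposited gene length. Fold changes are given as log2 ± SE, the SE being derived from the F statistic. The procedure was tested on simulated data. Alternatives were DESeq2 1.42.0, limma-voom (limma 3.58.1), other scalings and filters, a fit that was not robust, and leaving out each tumour.

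The 6 pathway lists of 133 genes, of which 117 were tested, and 10 marker lists came from general knowledge; the members and lists were chosen with earlier results of these data known. Named genes are the members, their close relatives, their 2 nearest profiles, the first 3 genes of each marker list, and in each pathway list the 2 with the smallest p and the 2 with the highest mean CPM. Some genes that this rule names are not reported here. No list was given a set test.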

Additional observations from a re-analysis of the deposited data

How the results depend on the processing

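edgeR called 0 of 17906 genes, and called 0 under every other scaling, filter and fit and with each LSN tumour left out. By limma-voom, 0 were called. DESeq2 called 100 of the 18547 genes that had an adjusted p, a set not limited by the count filter of edgeR. The DESeq2 count was 36 to 483 over the 5 omissions, being 36 when vehicle replicate 2 was omitted, 44 when LSN replicate 3 was and 483 when LSN replicate 1 was. Genes at an unadjusted p under 0.05 by edgeR numbered 407 to 1181 over the omissions, and DESeq2 gave 1218 with all tumours. The members' median log2 fold change was -1.84 to -0.86 over the omissions, that of the other glutathione transferases -0.78 to 0.27, and that of the lung phase I enzymes -2.20 to -0.73. Of 108 recomputed fold changes of single members, 6 moved by more than the spread within groups, all without vehicle replicate 1 or 2, and the 2 at or above 0 were those of Gstp1. No paired analysis was possible because the labels give no replicate numbers shared between groups. With 3 LSN and 2 vehicle tumours, differences of genes below about 1 CPM, such as those of Nqo1 in LSN replicate 2, rest on few reads. The omissions under DESeq2, the overlap counts under other scalings and the list without Cyp2f2 and Cbr2 were chosen after seeing the data.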
